A study of Mus musculus with 16 samples.

Results

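The genes followed here encode translation initiation factors, the proteins that place a ribosome at the start codon of an mRNA. They were chosen by name alone, as the non-control spots whose gene name on the array begins with Eif and a digit from 1 to 6. The kinases of eIF2 (Eif2ak genes) and the X-linked and Y-linked copies of an eIF2 subunit (Eif2s3x and Eif2s3y) were left out. This gave 52 of the 22328 genes named on the array, read by 82 of its 55681 distinct probes and 91 of its 59305 non-control spots. The name rule and the label do not match in 4 genes. Eif2c1, Eif2c2, Eif2c3 and Eif2c4 are old names of the Argonautes Ago1, Ago2, Ago3 and Ago4, which load small RNAs and are not initiation factors, so 48 genes carry the label in the current sense.

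Initiation on most mRNAs begins when eIF4E binds the cap and, with the scaffold eIF4G and the RNA helicase eIF4A, forms the eIF4F complex, while the 4E-binding proteins compete with eIF4G for eIF4E. The small ribosomal subunit arrives with eIF3, eIF1, eIF1A, eIF5 and eIF2, which brings the initiator tRNA with bound GTP, and eIF2B recharges eIF2 with GTP after each round. Resting lymphocytes are small cells with little protein synthesis, and they enlarge and raise it after activation, before they divide.

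RNA came from splenic B cells of AM14 mice, a strain whose B cell receptor recognises IgG, of 4 genotypes: WT, Tlr7-/- (Tlr7 knockout), Tlr9-/- (Tlr9 knockout) and Tlr7/9-/- (double knockout). Tlr7 and Tlr9 encode endosomal sensors of RNA and DNA. Each genotype was sampled unstimulated (0 h) and after 6, 24 and 42 h with PL2-3, an IgG antibody to chromatin that engages this receptor, to ask how TLR9 in the B cell bears on responses through the receptor and TLR7. One array was run for each of the 16 combinations, with the sample in Cy5 and, in Cy3 on every array, a pool of unstimulated AM14 B cell RNA from all genotypes, which is the common reference and no sample of a group. The labels do not give the mice's ages, the B cell purity, the dose or whether mice were pooled. All groups carry the AM14 receptor, and no group was cultured in its absence, so the effects of PL2-3 and of culture itself cannot be told apart. The arrays of WT and Tlr7 knockout shared 1 slide and those of the 2 genotypes without Tlr9 another, so slide and loss of Tlr9 cannot be told apart.

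Values are log2 of Cy5 over Cy3, so that 0 is the level of the pool and 1 is a 2-fold difference. With no replicate arrays, the genotypes stood in for replicates in the tests of time, and the stimulated times did so in the tests of genotype. Time was tested with limma, fitting genotype as well, over WT and both single knockouts, and its p-values measure the spread between these arrays. A gene was called at an adjusted p (Benjamini-Hochberg, over all genes tested) under 0.05. Between 37.4% and 62.7% of spots on an array were well above background in Cy5, the lowest on the Tlr9 knockout 0 h array, whose log2 ratios also spread most among the 0 h arrays (SD 0.279, against 0.153 to 0.184 on the others). The B cell markers were present: all 7 (Cd79a, Cd79b, Ms4a1, Cd22, Pax5, Cd37 and Blk) were well above background on all 16 arrays. Markers of other cell types were measured too. Most fell from 0 to 6 h as the B cell markers did, while 1 T cell marker rose (by 1.58). From 0 to 6 h the list median moved from between -0.14 and 0.21 to between -2.37 and -1.87 over the 4 arrays for B cells and from between -0.43 and 0.42 to between -1.99 and -1.50 for 8 myeloid markers. It moved from between -0.73 and 0.49 to between -2.08 and -1.07 for the 7 red cell markers on the array, from between -0.05 and 0.11 to between -0.74 and -0.51 for 7 T cell markers, and from between -0.24 and 0.13 to between -0.83 and -0.65 for 8 NK and plasmacytoid markers. The lists parted after 6 h. By 42 h the medians lay between -1.65 and -1.24 for B cells and between -3.03 and -2.36 for red cells. They lay between -1.84 and -1.48 for myeloid, -0.36 and -0.23 for T cell and -1.04 and -0.79 for NK and plasmacytoid markers. At 6 h, 7 to 8 of the myeloid, 5 to 6 of the red cell, 5 of the T cell and 4 to 6 of the NK and plasmacytoid markers were well above background. Their part in the changes below was not tested. In such bulk RNA, fewer cells of a type and less RNA per cell cannot be told apart, and each value is relative to the labelled RNA of that array.

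Initiation factor transcripts were raised at 6 h. Of 51 genes that passed the filter on dim probes, 36 rose and 5 fell at 6 h against 0 h, where 53.1% of the 15044 genes tested were called, 25.9% higher and 27.1% lower. Their median change was 0.86 on the log2 scale, and the median of all genes tested was -0.01. Without Eif5b, which passed that filter only through its 6 h arrays, 35 of 50 rose. Without the Argonautes, 35 of 47 rose, 4 fell and the median was 0.98. Of the 36 that rose, 35 were above their own 0 h array in each of the 4 genotypes, the double knockout included, although it did not enter the test. The exception was Eif1, which changed by -0.02 in the Tlr9 knockout. The 52nd gene, Eif4e1b, an eIF4E relative known from oocytes, was well above background in Cy5 on only 2 of 16 arrays and was not tested. At the level of single arrays, 25 of the 51 genes were at least 2-fold above their own 0 h array in WT at 6 h (11.2% of all genes), 23 with Tlr7 lost (11.6%), 19 with Tlr9 lost (11.3%) and 21 with both lost (9.66%). The genes were bright: the median log2 brightness of those tested was 12.10, against 8.85 for all genes tested.

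**Figure D1:**
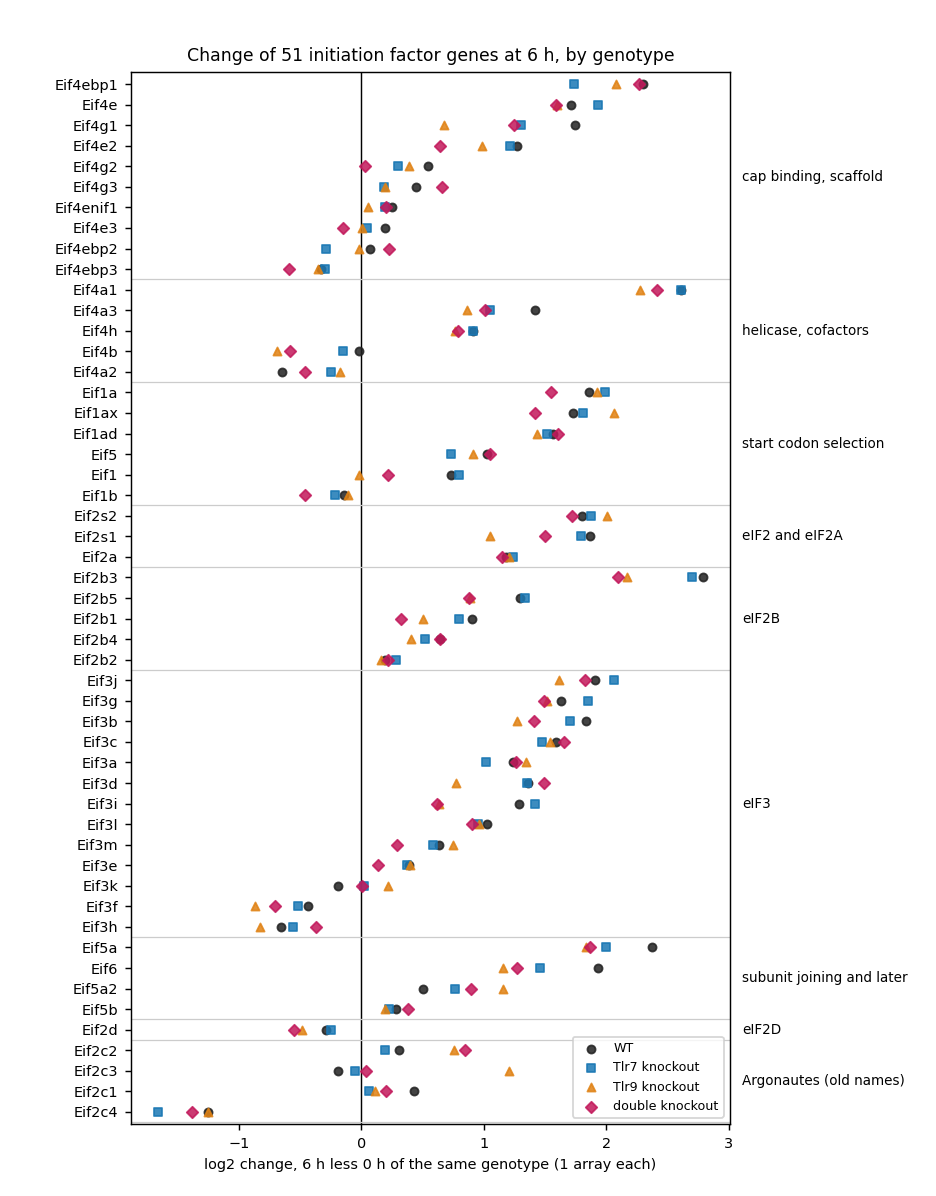
Log2 change from 0 h to 6 h (x axis) of the 51 tested genes (y axis, grouped by role), with 1 point for each genotype. Most points lie to the right of 0 in every genotype, with the largest shifts for Eif4a1 and Eif2b3. Eif2c4, Eif3h, Eif3f, Eif2d, Eif4ebp3, Eif4a2, Eif4b and Eif1b lie to the left in all 4.

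The scaling of the arrays sets how many genes count as falling. Loess centres the ratios at each brightness, and with a single median per array instead, the median of all genes was 0.26 (6 h), 0.30 (24 h) and 0.07 (42 h). The share of higher calls among all genes called then went from 48.9% to 74.2% at 6 h, from 47.7% to 78.4% at 24 h and from 45.0% to 57.7% at 42 h. Of the initiation factor genes, 42 then rose and 1 fell at 6 h, 42 rose and 1 fell at 24 h, and 27 rose and 1 fell at 42 h. The shares above are of the genes called. Shares of all genes tested are not given for median centring, so these counts have no such background. Relative to the median of all genes, their median change at 6 h was 0.87 with loess and 1.50 with median centring. The initiation factor genes were brighter than most (median log2 brightness 12.10 against 8.85). A single median leaves any trend with brightness in place, so the value of 1.50 is not an excess over genes of like brightness. All 36 genes that were higher at 6 h with loess were also called higher with median centring, as were all 32 at 24 h and 23 of 25 at 42 h (not Eif2b1, adjusted p = 0.433, nor Eif3j, adjusted p = 0.0614). Of the genes called lower, 1 of 5 at 6 h, 1 of 8 at 24 h and 1 of 6 at 42 h were lower with both.

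**Figure D2:**
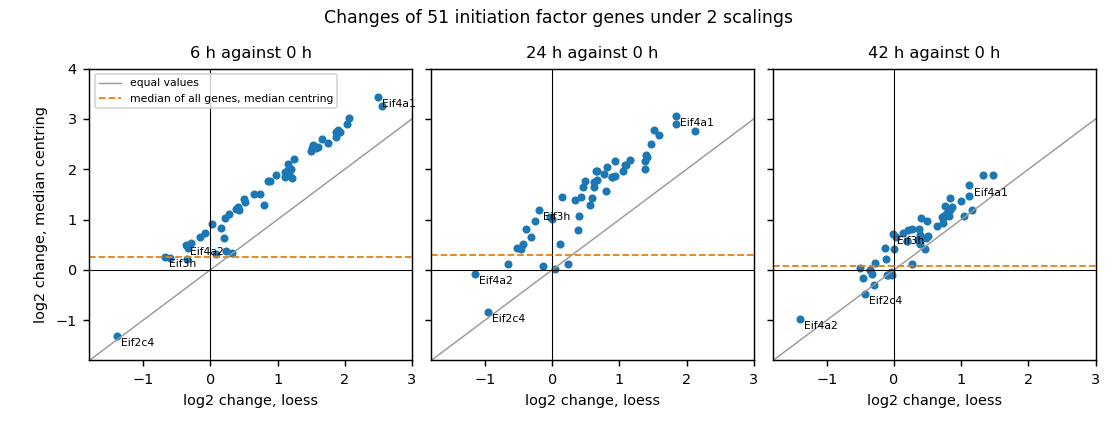
Log2 change of each of the 51 genes with loess (x axis) against the same change with median centring (y axis) at 6, 24 and 42 h, with the dashed line at the median of all genes under median centring. Points lie above the line of equal values for most genes, and Eif2c4 and, at 42 h, Eif4a2 are below 0 on both axes.

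Among the factors at the cap, the cap-binding protein itself rose. Eif4e stood at 0.41, 0.33, 0.15 and 0.33 at 0 h (arrays always in the order WT, Tlr7 knockout, Tlr9 knockout, then double knockout), and at 2.12, 2.26, 1.75 and 1.92 at 6 h. The groups did not overlap, and the change was 1.75 ± 0.10 (SE of the fit over 3 genotypes, as after each ± below unless SD is named), or 3.35-fold (adjusted p = 9.17e-07). The binding protein Eif4ebp1, a repressor of eIF4E that mTOR kinase switches off by phosphorylation, rose more, from -0.12, 0.07, 0.28 and -0.02 to 2.18, 1.81, 2.36 and 2.24 (change 2.04 ± 0.19, adjusted p = 1.69e-05). Its relatives changed less. Eif4ebp2 changed by -0.08 ± 0.11 and was not called with loess, but was higher with median centring (0.73, adjusted p = 0.00915), and Eif4ebp3 fell by 0.33 ± 0.09 with loess (adjusted p = 0.012) but was at 0.44 with median centring (adjusted p = 0.0818). On the same arrays, the change of Eif4ebp1 less that of Eif4ebp2 was 2.11 ± 0.10 (SD, 3 genotypes) at 6 h with loess and 2.16 ± 0.12 with median centring.

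The scaffold Eif4g1 rose from -0.45, -0.31, 0.43 and -0.27 to 1.30, 1.0, 1.1 and 0.98 at 6 h (change 1.24 ± 0.18, adjusted p = 0.000248). The other scaffold genes moved less, Eif4g2 by 0.41 ± 0.11 and Eif4g3 by 0.27 ± 0.09, both called. The Eif4g3 value rests on 1 of its 4 probes, and the mean over probes gave -0.02 (adjusted p = 0.831). Eif4e2, whose product binds the cap and represses translation, rose by 1.16 ± 0.11 with the brightest of its 3 probes, and the others gave 0.54 and 0.25. Eif4e3 (0.08) and Eif4enif1, which encodes the eIF4E transporter (0.17), were not called with loess. With median centring Eif4enif1 was higher (0.83, adjusted p = 0.00294) and Eif4e3 was not called (0.32, adjusted p = 0.167).

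The helicase genes moved apart. Eif4a1, which encodes the main eIF4A, stood at -0.17, 0.03, 0.11 and -0.19 at 0 h. At 6 h it stood at 2.44, 2.64, 2.38 and 2.22, at 24 h at 1.95, 1.86, 1.67 and 0.88, and at 42 h at 1.13, 1.07, 1.13 and 0.98. Every stimulated array lay above every 0 h array, and the change at 6 h was 2.50 ± 0.12, or 5.65-fold (adjusted p = 3.6e-07). Its close paralog Eif4a2 stood at 0.45, 0.10, 0.01 and 0.23 at 0 h, at -0.20, -0.14, -0.17 and -0.23 at 6 h, at -1.01, -0.99, -0.88 and -0.59 at 24 h, and at -1.23, -1.47, -0.92 and -0.99 at 42 h. The 0 h arrays of Eif4a2 were its 4 highest, and the 24 h and 42 h arrays were its 8 lowest. Its change of -0.36 ± 0.15 at 6 h was not called. At 24 h it fell by 1.15 ± 0.15 (adjusted p = 0.00015) and at 42 h by 1.40 ± 0.15 (adjusted p = 8.87e-05). With median centring the 24 h value was -0.08 (adjusted p = 0.775) and the 42 h value -0.97 (adjusted p = 0.00323). A second Eif4a2 probe gave -0.64 and -0.82 at 24 and 42 h. A shift of a whole array cancels in the change of Eif4a1 less that of Eif4a2, which was 2.86 ± 0.40 (SD, 3 genotypes) at 6 h, 2.99 ± 0.57 at 24 h and 2.52 ± 0.52 at 42 h with loess. With median centring it was 2.96, 3.13 and 2.65. In the double knockout the loess values were 2.87, 1.88 and 2.39.

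**Figure D3:**
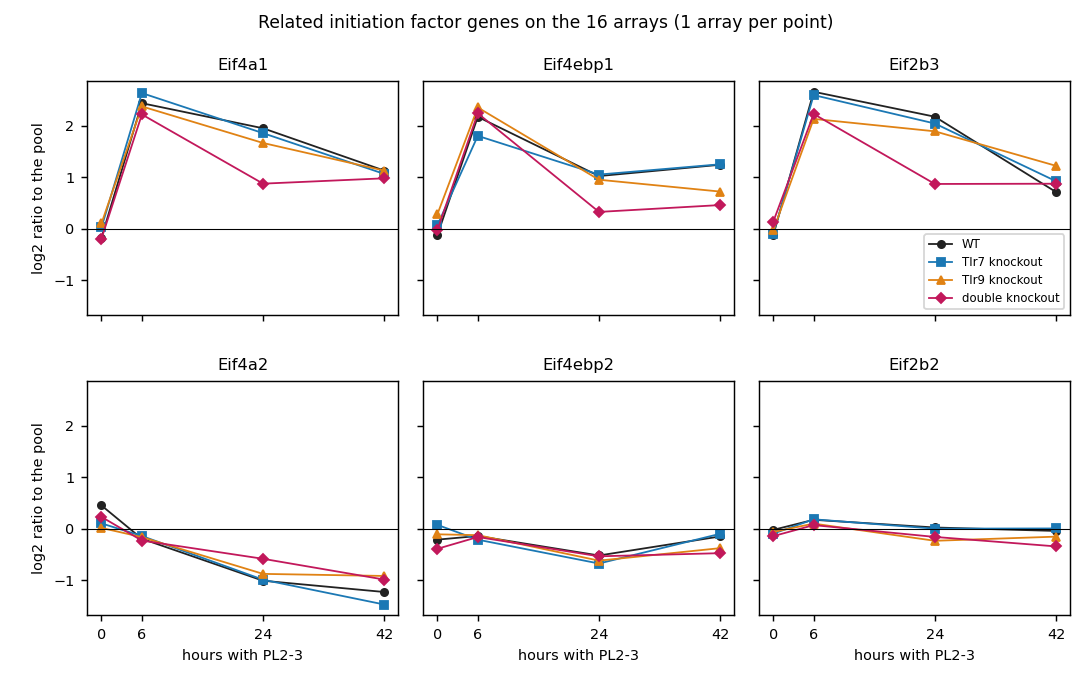
Log2 ratio to the pool (y axis) against hours with PL2-3 (x axis) for related genes set above each other, with 1 line for each genotype and 1 array per point. Eif4a1, Eif4ebp1 and Eif2b3 rise at 6 h in every genotype, Eif4a2 falls at the later times and Eif4ebp2 and Eif2b2 show no such rise. The double knockout lies below the others at 24 h for Eif4a1, Eif4ebp1 and Eif2b3.

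Of the helicase cofactors, Eif4h rose by 0.86 ± 0.16 at 6 h. Eif4b, whose product stimulates eIF4A, did not pass the test at 6 h (-0.29 ± 0.13) and was higher at 24 h (0.67 ± 0.13, adjusted p = 0.00168) and at 42 h (0.76 ± 0.13). Its 3 probes differed at 6 h, with changes of -0.29, 0.91 and 0.20, and were close at 42 h, at 0.76, 0.91 and 0.93. Eif4a3, which encodes the helicase of the exon junction complex, rose by 1.11 ± 0.13.

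With loess, genes for start codon selection rose at 6 h, except Eif1b. Eif1a rose by 1.92 ± 0.10 and its X-linked form Eif1ax by 1.86 ± 0.11; their products keep the scanning ribosome open. Eif1ax stood at -0.03, -0.02, -0.59 and -0.00 at 0 h and at 1.70, 1.79, 1.47 and 1.42 at 6 h. At 24 h it stood at 1.75, 1.66, 1.49 and 0.81, a change of -0.60 in the double knockout and of -0.13 to 0.05 in the others. Eif1ad rose by 1.50 ± 0.12 and Eif5, whose product makes eIF2 hydrolyse its GTP, by 0.89 ± 0.12. Eif1, the factor that rejects wrong start codons, rose by 0.50 ± 0.15 (adjusted p = 0.0182). The change was 0.73 in WT, 0.80 in the Tlr7 knockout, -0.02 in the Tlr9 knockout and 0.21 in the double knockout. At 0 h Eif1 stood at -0.06, -0.05, 0.34 and 0.24, so these changes also differ through their 0 h arrays. Its paralog Eif1b changed by -0.16 ± 0.08 and was not called with loess, but was higher with median centring (0.66, adjusted p = 0.00778).

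The genes for eIF2 rose together. Eif2s1, the subunit that stress kinases phosphorylate, rose by 1.57 ± 0.15 and Eif2s2 by 1.89 ± 0.11. Eif2s2 stood at 0.22, 0.19, -0.19 and 0.07 at 0 h, at 2.02, 2.06, 1.82 and 1.79 at 6 h and at 1.83, 1.63, 1.52 and 0.74 at 24 h. Eif2a, whose product eIF2A can bring initiator tRNA by another route, rose by 1.21 ± 0.17 at 6 h and was no lower at 24 h (1.39 ± 0.17).

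The subunits of eIF2B did not rise to the same extent. Eif2b3, a subunit of the catalytic part, had the largest fitted rise of the 51 genes tested with loess (with median centring Eif4a1 rose more, by 3.45 against 3.27), from -0.12, -0.10, -0.03 and 0.14 to 2.66, 2.60, 2.14 and 2.23 (change 2.55 ± 0.17, or 5.86-fold, adjusted p = 2.32e-06). A second probe gave 2.46. Eif2b5, its partner in the catalytic part, rose by 1.17 ± 0.11, and the regulatory subunits Eif2b1 and Eif2b4 by 0.73 ± 0.14 and 0.52 ± 0.09. Eif2b2, the remaining regulatory subunit, stood between -0.15 and -0.02 at 0 h and between 0.07 and 0.18 at 6 h, and its change of 0.21 ± 0.08 was not called with loess (adjusted p = 0.0607) but was with median centring (1.04, adjusted p = 0.00193). The change of Eif2b3 less that of Eif2b2 was 2.34 ± 0.30 (SD, 3 genotypes) at 6 h.

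Of the 13 genes of eIF3, the large complex that holds the small subunit and recruits the mRNA, 10 rose and 2 fell at 6 h. The largest rises were those of Eif3j (1.86 ± 0.15), Eif3g (1.66 ± 0.15), Eif3b (1.60 ± 0.12) and Eif3c (1.53 ± 0.09). Eif3a, Eif3d and Eif3i rose by 1.11 to 1.20, Eif3l by 0.98, Eif3m by 0.66 and Eif3e by 0.38. Eif3k stayed near its 0 h value (0.02 ± 0.10), which its other probes also gave (0.02 and 0.11), but it was called higher with median centring (0.92, adjusted p = 0.00337). Eif3f and Eif3h, which encode the subunits with an MPN domain, stood below their 0 h arrays in every genotype. Eif3f stood at -0.23, -0.21, 0.08 and 0.07 at 0 h and at -0.67, -0.72, -0.79 and -0.64 at 6 h (change -0.61 ± 0.11, adjusted p = 0.000962), and Eif3h fell by 0.68 ± 0.09 (adjusted p = 0.000126). With median centring both were near the median of all genes and neither was called, at 0.23 (adjusted p = 0.462) and 0.25 (adjusted p = 0.369). Against Eif3c on the same arrays, Eif3h was lower by 2.21 ± 0.17 (SD, 3 genotypes) at 6 h with loess and by 2.24 with median centring, so these subunits moved unequally under both.

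After the start codon is found, eIF5B joins the large subunit, and eIF5A, which carries the modified lysine hypusine, acts through elongation. Eif5a rose from -0.49, -0.42, -0.12 and -0.17 to 1.88, 1.58, 1.71 and 1.69 (change 2.07 ± 0.15, or 4.19-fold, adjusted p = 3.43e-06), and Eif5a2 by 0.81 ± 0.17. Eif6, which keeps new large subunits from joining too early, rose by 1.52 ± 0.13. Eif5b is counted among the 36 (0.23 ± 0.08), but its probe was well above background in Cy5 only on the 4 arrays at 6 h, through which it passed the filter, so its call supports nothing. In Cy5 alone, its 6 h arrays lay 1.23-fold above a bound at the background level of the 0 h arrays. That value comes from the same 6 h arrays and supports nothing either. Eif2d, an alternative initiator tRNA carrier also known as ligatin, fell by 0.34 ± 0.12 at 6 h and rose by 0.39 at 24 h and 0.51 at 42 h. With median centring its 6 h value was 0.22 (adjusted p = 0.376). A second Eif2d probe, spotted 10 times, gave -0.37, 0.43 and 0.52, and its spots on 1 array had an SD of 0.04 to 0.09.

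Of the Argonautes, Eif2c4 (Ago4) had the largest fall at 6 h of the 51 genes tested. It stood at 0.00, 0.19, 0.08 and 0.01 at 0 h, at -1.25, -1.46, -1.18 and -1.38 at 6 h, at -0.87, -0.76, -0.97 and -0.72 at 24 h and at -0.03, -0.41, -0.60 and -0.47 at 42 h. The change at 6 h was -1.39 ± 0.15 (adjusted p = 3.43e-05) with loess and -1.32 (adjusted p = 0.000115) with median centring, and a second probe gave -1.01. Eif2c2 (Ago2) has no single value: the brighter probe gave 0.42 and the other -1.98 at 6 h, and 2 further probes that the array lists under other names gave 0.63 and 0.77. Eif2c1 and Eif2c3 were not called at 6 h with loess. With median centring Eif2c1 was higher (0.64, adjusted p = 0.0452) and Eif2c3 was not called (0.34, adjusted p = 0.23).

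Other genes with more than 1 probe mostly gave 1 answer at 6 h. For 21 genes with at least 2 probes well above background on 12 or more arrays, the median spread between probes at 6 h was 0.21. In 14 the spread was under 0.5, and in 4 the probes lay on opposite sides of 0 (Eif2c1, Eif2c2, Eif4b and Eif4g3). At later times some differed more. The Eif2s1 probes gave 1.47 and 0.46 at 24 h and 0.84 and -0.02 at 42 h. At 24 h 2 Eif4e probes gave 1.41 and 0.80, and at 42 h the Eif1ad probes gave 0.71 and -0.06. Those of Eif2b3 stayed close at 24 h (2.13 and 2.01). Values at these times are those of the brightest probe unless others are named.

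Promoter sequences are shown for 5 genes that moved in different ways, with the E-box CACGTG in capitals, the letters that MYC and its partner MAX are known to bind. They are the 250 bases before the annotated start in RefSeq (GRCm38.p6), 5′ to 3′ on the strand of the gene. Eif4a1 lies on the minus strand at chr11:69672424-69672673, Eif4e on the plus strand at chr3:138527018-138527267, Eif5a on the minus strand at chr11:69920631-69920880, Eif4a2 on the plus strand at chr16:23107218-23107467 and Eif3f on the plus strand at chr7:108934165-108934414. Where a gene has several starts, the one shown holds the motif (1 of 2 starts for Eif4e and 3 of 6 for Eif5a).
Eif4a1: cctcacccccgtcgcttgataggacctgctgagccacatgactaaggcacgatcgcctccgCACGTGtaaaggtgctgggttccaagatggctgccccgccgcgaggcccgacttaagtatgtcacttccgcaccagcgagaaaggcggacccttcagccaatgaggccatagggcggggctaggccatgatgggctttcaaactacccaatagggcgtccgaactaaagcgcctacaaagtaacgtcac
Eif4e: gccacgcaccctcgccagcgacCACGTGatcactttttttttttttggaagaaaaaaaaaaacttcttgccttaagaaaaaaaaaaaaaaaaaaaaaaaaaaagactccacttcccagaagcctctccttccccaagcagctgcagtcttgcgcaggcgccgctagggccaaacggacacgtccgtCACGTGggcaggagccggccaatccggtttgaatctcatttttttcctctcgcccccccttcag
Eif5a: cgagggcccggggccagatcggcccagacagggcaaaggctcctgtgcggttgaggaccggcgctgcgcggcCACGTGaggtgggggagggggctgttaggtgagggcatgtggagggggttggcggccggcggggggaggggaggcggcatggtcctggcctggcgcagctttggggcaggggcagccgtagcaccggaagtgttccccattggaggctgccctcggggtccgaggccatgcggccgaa
Eif4a2: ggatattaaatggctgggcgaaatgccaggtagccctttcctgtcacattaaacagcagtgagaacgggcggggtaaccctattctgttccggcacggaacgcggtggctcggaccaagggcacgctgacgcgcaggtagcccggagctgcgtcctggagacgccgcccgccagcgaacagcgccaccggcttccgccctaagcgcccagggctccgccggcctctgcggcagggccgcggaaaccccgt
Eif3f: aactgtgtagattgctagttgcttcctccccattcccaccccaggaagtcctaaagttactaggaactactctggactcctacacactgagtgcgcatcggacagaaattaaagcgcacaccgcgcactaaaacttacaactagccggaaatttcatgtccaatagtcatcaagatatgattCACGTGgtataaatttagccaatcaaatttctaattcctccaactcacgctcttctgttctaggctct

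The E-box begins 189 bases before the start of Eif4a1 and 178 before that of Eif5a, and Eif4e has it 228 and 64 bases before its start. Eif4a2, which fell at 24 and 42 h under loess, has none in this window, while Eif3f, which fell at 6 h under loess, has it 68 bases before its start. With median centring Eif3f was not called at 6 h and was higher at 24 h (0.82, adjusted p = 0.015). In total, 40 of the 52 genes had a promoter in the RefSeq table, and 9 of them (22.5%) held CACGTG in at least 1 promoter, against 6.86% of all 27025 genes in it. The palindrome reads alike on both strands. By the loess calls, those 9 were 6 of 28 genes that rose at 6 h (Eif4a1, Eif4e, Eif4g1, Eif4h, Eif5a and Eif5a2), 1 of 3 that fell (Eif3f) and 2 of 9 that were not called (Eif1b and Eif3k). A second motif, the ETS site CCGGAAGT searched on both strands, was in 5 of the 40 (12.5%: Eif3d, Eif3l, Eif4e2, Eif5a and Eif5a2), against 3.23% of all genes. It does not overlap the E-box letters. A match is a description of the sequence, and no binding was measured here.

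The rise lessened with time. At 24 h against 0 h 32 genes were higher and 8 lower (54.5% of all genes were called, 26% higher and 28.5% lower), with a median change of 0.62, and 29 of the 36 that rose at 6 h were still called higher. At 42 h 25 were higher and 6 lower (43.3% of all genes, 19.5% higher and 23.8% lower), with a median of 0.37, and 23 genes were called higher at all 3 times. Of the 36 genes that rose at 6 h, 32 had their highest mean of WT, Tlr7 knockout and Tlr9 knockout at 6 h and 4 at 24 h. Without WT the 42 h count was 17 higher and 2 lower, and without the Tlr7 knockout 17 higher and 1 lower; without the Tlr9 knockout, whose 0 h array stands apart, it was 30 higher and 8 lower. At 24 h the 2 arms of slide 2 alone (Tlr9 knockout and double knockout) gave 15 higher and 3 lower.

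**Figure D4:**
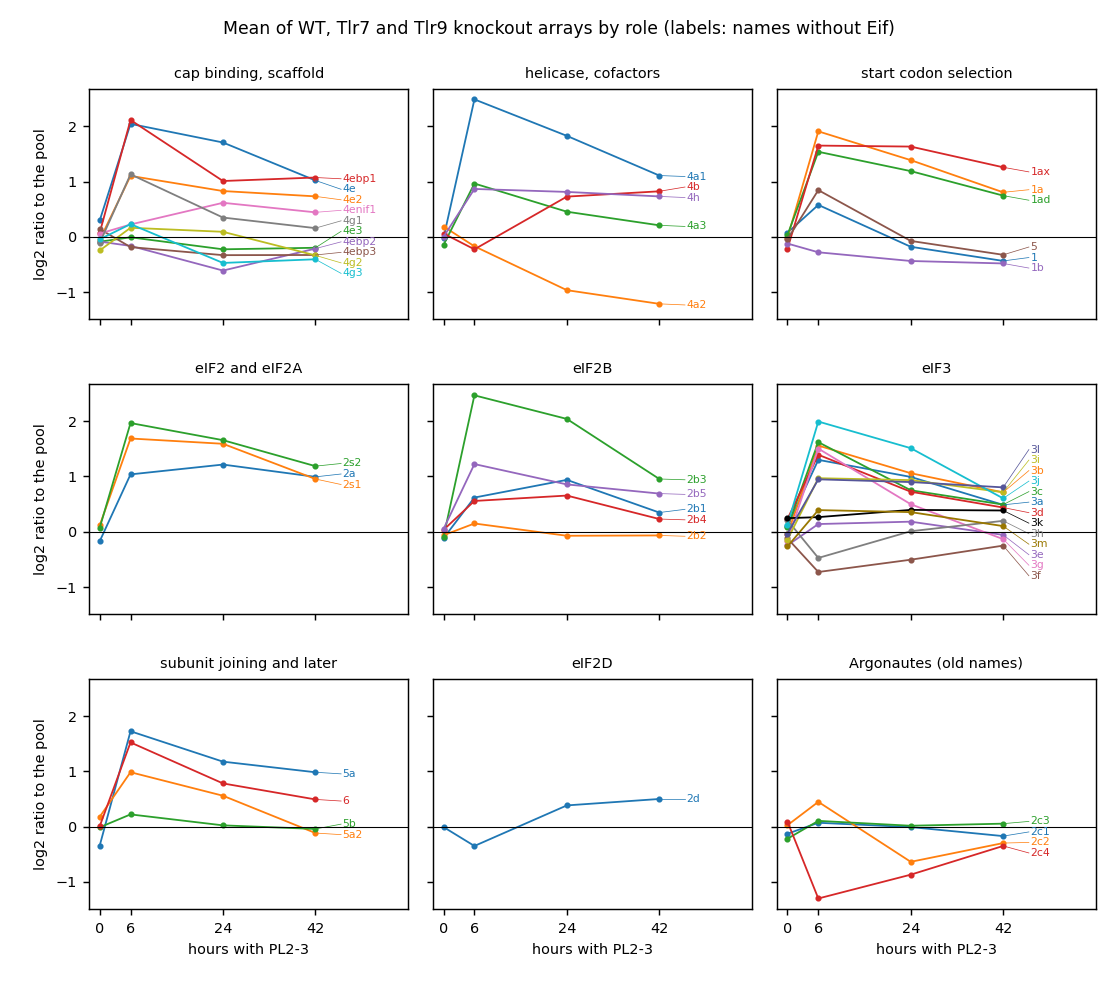
Mean log2 ratio to the pool over WT, Tlr7 knockout and Tlr9 knockout (y axis) against hours with PL2-3 (x axis), with 1 line per gene and 1 panel per role. Most lines peak at 6 h and decline, Eif4a2 declines at every step, and Eif2d and Eif4b dip or stay flat at 6 h and rise by 24 h.

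From 6 to 24 h 23 genes fell and 4 rose, where 38.1% of all genes were called, 17.5% higher and 20.5% lower, and the median was -0.27. Leaving out Eif2c2, whose probes differ, the largest falls were those of Eif4ebp1 (-1.10 ± 0.19), Eif3g (-1.01 ± 0.15), Eif5 (-0.92 ± 0.12) and Eif3c (-0.87 ± 0.09). The 4 genes that rose were Eif4b (0.95 ± 0.13), Eif2d (0.73 ± 0.12), Eif3h (0.48 ± 0.09) and Eif2c4 (0.43 ± 0.15). Eif1ax (-0.02 ± 0.11), Eif3i (-0.03 ± 0.15), Eif3l (-0.05 ± 0.09), Eif3m (-0.04 ± 0.09) and Eif4h (-0.05 ± 0.16) stayed near their 6 h values. These counts depend on the scaling and on single genotypes. With median centring 3 rose and 4 fell (Eif3g, adjusted p = 0.0888, and Eif3c, adjusted p = 0.0765, were not called), without WT 2 rose and 11 fell, and without the Tlr7 knockout 4 rose and 7 fell.

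From 24 to 42 h 12 genes fell and none rose, where 7.93% of all genes were called, 2.83% higher and 5.1% lower. They include Eif2b3 (-1.09 ± 0.17, adjusted p = 0.0139), Eif3j (-0.91 ± 0.15), Eif4a1 (-0.72 ± 0.12), Eif4e (-0.69 ± 0.10), Eif2s1 (-0.64 ± 0.15) and Eif2s2 (-0.47 ± 0.11). With median centring 36 fell, among them all 12, and the share of higher calls among all genes called went from 35.7% to 0.989%. Without WT, without the Tlr7 knockout or with the double knockout added no gene passed, while without the Tlr9 knockout 16 fell and 2 rose. With the 3 genotypes, 23 of 51 passed at an unadjusted p under 0.05, as did 3854 of all 15044 genes.

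No initiation factor gene differed between genotypes by the test. In these fits the stimulated times stood in for replicates, so the p-values and intervals measure how far a genotype difference varies between times. A difference seen at only some of the times widens that spread, which makes a call less likely. In the stimulated arrays, the double knockout against the other 3 genotypes gave 0 calls among the 51 genes (0% of all 15314 genes tested were called). At an unadjusted p under 0.05, 22 of the 51 passed, as did 3232 of all 15314. The smallest adjusted p of the 51 was 0.111. Here 42 of 51 differences were below 0, with a median of -0.16 against -0.01 for all genes. The differences with the smallest p were those of Eif6 (-0.45, 95% interval -0.71 to -0.19), Eif2s1 (-0.45, -0.74 to -0.17) and Eif2s2 (-0.55, -0.91 to -0.18). Tlr9 knockout against WT gave 0 (0.0718% of all genes, smallest adjusted p 0.49) and a median difference of -0.10. There 6 of 51 and 1404 of all 15314 genes passed at an unadjusted p under 0.05. Tlr7 knockout against WT gave 0 (0.00653% of all genes) and a median of -0.04. Unadjusted, 0 of 51 and 220 of all 15314 genes had a p under 0.05. The double knockout against the Tlr9 knockout, arms of 1 slide that differ by Tlr7, gave 0 (0.0522% of all genes) and a median of -0.11. In that comparison 3 of 51 and 886 of all 15314 genes had an unadjusted p under 0.05. For Eif4a1, the 95% interval of the Tlr7 knockout less WT was -0.42 to 0.44 and that of the Tlr9 knockout less WT was -0.55 to 0.31. Differences within these intervals are compatible with the data, so 0 calls do not mean equal levels. All of these counts stayed at 0 under each alternative that was run.

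The response of the double knockout, its stimulated arrays less its own 0 h array, was also set against that of the other 3 genotypes. It gave 0 calls among the 51 genes (0.0193% of all genes were called), with 40 of 51 differences below 0 and a median of -0.15. At an unadjusted p under 0.05, 4 of 51 passed, as did 1226 of all 15568 genes, a similar share. The smallest p was that of Eif4e2 (-0.72, 95% interval -1.15 to -0.29, adjusted p = 0.613), which stood at 0.38 in the double knockout at 0 h against -0.12 to 0.04 in the others.

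The double knockout arrays are single arrays, and their place against the range of the other genotypes is given with no test. On the 6 h array 19 of 51 genes were below the lowest of the other 3 genotypes (28.5% of all genes), 8 were above the highest (24.8%) and 24 within the range. On the 24 h array 32 of 51 were below (35.8% of all genes), 10 above (34.7%) and 9 within, with a median difference of -0.30 from the mean of the others. On the 42 h array 25 were below (24.1%), 7 above (25.7%) and 19 within, with a median difference of -0.11. Of all genes that rose at 6 h, 42% were below the range at 6 h, 66.9% at 24 h and 27.4% at 42 h. Of the 36 initiation factor genes that rose at 6 h, 13, 32 and 18 were. The 24 h double knockout array also had the smallest spread of log2 ratios of the 12 stimulated arrays (SD 0.447, against 0.494 to 0.704). With median centring 44 of 51 genes were below the range at 24 h and none above, where 49.7% of all genes were below.

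The genes listed first have the largest differences on the 24 h double knockout array, each from its brightest probe. Over all 51 genes the median difference was -0.30. Eif2b3 stood at 0.87 in the double knockout at 24 h against 1.90 to 2.18 in the others, Eif3j at 0.42 against 1.21 to 1.67, Eif1ad at 0.24 against 1.05 to 1.40 and Eif4a1 at 0.88 against 1.67 to 1.95. Both measured eIF2 subunits, Eif2s1 (0.71 against 1.49 to 1.68) and Eif2s2 (0.74 against 1.52 to 1.83), lay as low. Eif3i (0.83), Eif4b (0.69), Eif3k (0.43) and Eif2d (0.36) lay within the range. Of the 10 above the range, Eif4a2 stood at -0.59 against -1.01 to -0.88, Eif3f at 0.06 against -0.56 to -0.42 and Eif2c2 at 0.06 against -0.66 to -0.62. At 42 h Eif2b3 stood within the range, at 0.88 against 0.72 to 1.22, and Eif4a1 just below it, at 0.98 against 1.07 to 1.13, as the other genotypes had come down. Eif6 (0.03 against 0.44 to 0.54) and Eif4ebp1 (0.46 against 0.72 to 1.25) were still below it. Relative to its own 0 h array, the double knockout had 2 of 51 genes at least 2-fold up at 24 h (4.25% of all genes), Eif4a1 and Eif2a, against 15 in WT (10.7%) and 13 in each single knockout (10.4% without Tlr7, 11.6% without Tlr9). At 42 h the counts were 8 in WT (7.21%), 8 without Tlr7 (8.28%), 6 without Tlr9 (7.11%) and 4 in the double knockout (7.31%).

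The step from 6 to 24 h in the double knockout was tested against the same step in the other genotypes, a comparison added after the data were seen. No gene on the array passed (0% of 15314 tested), and the smallest adjusted p of the 51 was 0.451. At an unadjusted p under 0.05, 10 of the 51 and 1487 of all 15314 passed. The estimates were -0.69 for Eif4a1 (95% interval -1.27 to -0.10), -0.69 for Eif4e (-1.29 to -0.10) and -0.83 for Eif1ad (-1.57 to -0.09), and 35 of 51 lay below 0. The single 24 h array of the double knockout has no replicate.

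**Figure D5:**
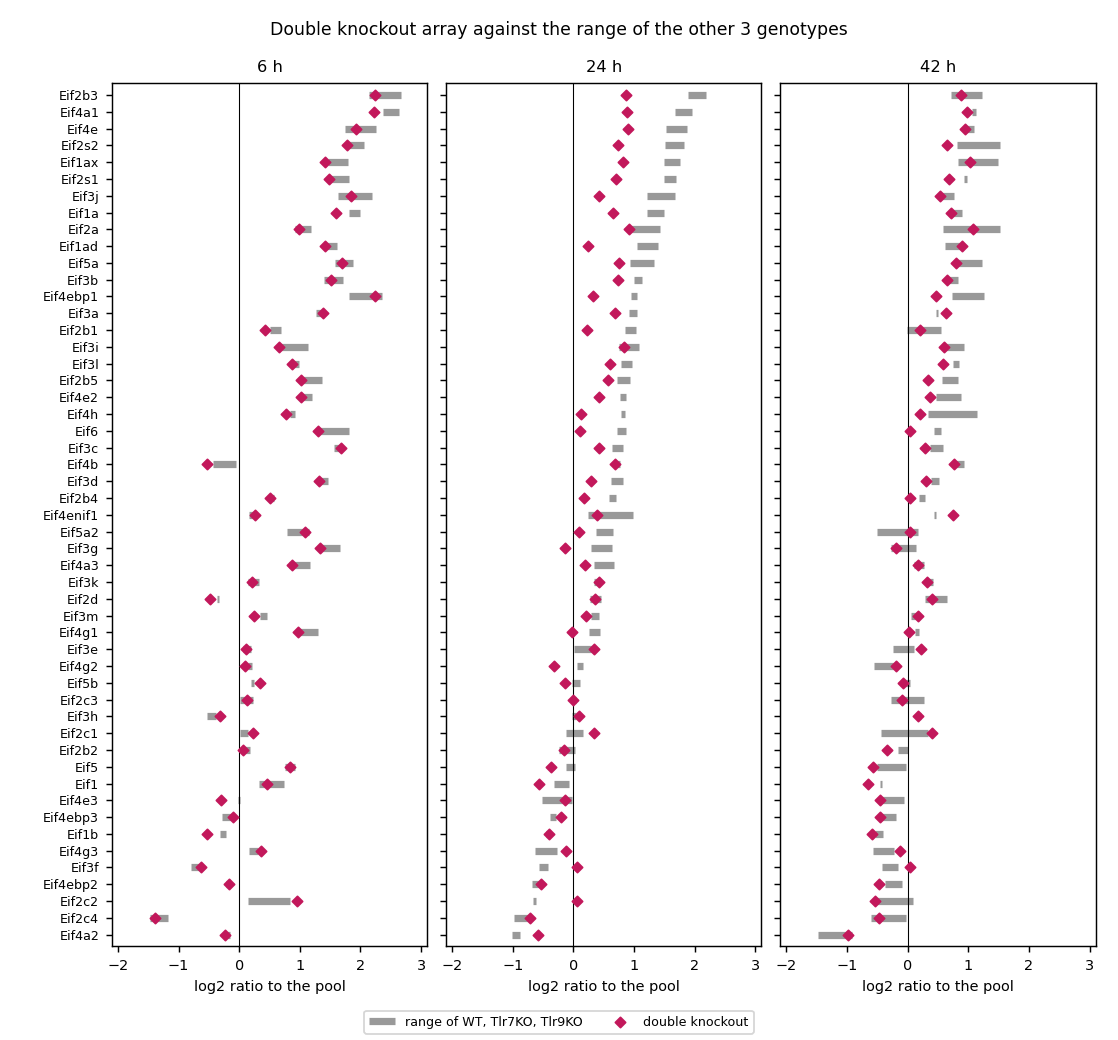
Log2 ratio to the pool (x axis) of each of the 51 genes (y axis, ordered by the 24 h mean of the other genotypes) at 6, 24 and 42 h. Grey bars span the WT, Tlr7 knockout and Tlr9 knockout arrays and diamonds are the double knockout array. At 24 h 32 diamonds lie left of their bar and 10 right of it, while at 6 h 24 lie within.

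Genes that act with the initiation factors were followed from lists chosen by function, and their counts at 6 h stand against 25.9% of all genes higher and 27.1% lower. All 4 genes of hypusine synthesis, which modifies eIF5A, rose at 6 h. Odc1 and Srm, for the polyamine that supplies the group, rose by 4.01 ± 0.22 and 3.12 ± 0.15, and Dohh and Dhps, for the modifying enzymes, by 1.35 ± 0.11 and 0.77 ± 0.16. Of 14 partners at the cap and the small subunit, 9 rose and 4 fell, with a median of 0.59. The poly(A)-binding protein genes Pabpc4 and Pabpc1 rose by 2.32 ± 0.09 and 1.12 ± 0.13. Larp1, whose product binds mRNAs of the translation machinery, rose by 2.24 ± 0.12. The 4 that fell were Mknk2 (-2.45 ± 0.19) and Mknk1 (-0.95 ± 0.14), the kinases of eIF4E, Paip2 (-1.57 ± 0.21), an inhibitor of poly(A)-binding protein, and Pdcd4 (-0.76 ± 0.23), an inhibitor of eIF4A. With median centring 10 rose and 3 fell, and Pdcd4 was at -0.03 (adjusted p = 0.939). At 24 h 8 rose and 4 fell, and the change of Pdcd4 was -1.50 ± 0.23 in the 3 genotypes tested (-0.62 with median centring, adjusted p = 0.067) and 0.04 in the double knockout.

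In the mTOR arm 5 of 10 genes rose and 2 fell at 6 h. Mtor and Rptor rose by 0.99 ± 0.11 and 0.87 ± 0.10, and Ddit4, whose product restrains mTOR, fell by 2.93 ± 0.34 (-2.33 with median centring, where 6 rose and 1 fell). By 42 h none of the 10 was higher and 1 was lower. Of 8 genes for eIF2 kinases, their regulators and the eIF2 phosphatase, 2 rose at 6 h (Ppp1r15a by 0.93 ± 0.19 and Gcn1 by 0.45 ± 0.12) and 1 fell (Eif2ak3, the kinase PERK, by 1.12 ± 0.21), shares near those of all genes, and with median centring 5 rose and 1 fell. Ppp1r15a was lower at 24 h with loess (-0.82 ± 0.19) and at 0.01 with median centring, and Eif2ak2, the interferon-induced kinase PKR, was not called at 6 h (-0.35 ± 0.38) and was higher at 24 h (2.06 ± 0.38). Of the elongation and release factors, 7 of 9 tested rose at 6 h and none fell, led by Eef1e1 (2.23 ± 0.16) and Etf1 (2.03 ± 0.16), with a median of 0.86. The 7 were called higher at 24 h and at 42 h as well. Of 6 mitochondrial factors, 3 elongation factors rose at 6 h (Tsfm, Gfm1 and Tufm, by 0.86 to 1.55), while the initiation factor Mtif3 fell by 0.33 ± 0.09 and Mtif2 fell at 24 h by 1.24 ± 0.16. Neither fall was called with median centring (0.16, adjusted p = 0.477, and -0.09, adjusted p = 0.761).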

How the data were processed

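Two-colour Agilent arrays of 16 AM14 B cell samples were read with Feature Extraction 10.1.1.1, per the file headers, on a design annotated on mm9. The deposited spot intensity is the foreground mean and the local background median of each colour, uncorrected. Deposited processed signals are intensities corrected and dye-normalized by that program, and the log10 ratio column is Cy5 over Cy3, per the file headers. The authors' series table holds the log10 ratio of the processed signals. Well-above-background and outlier flags were deposited as 0 or 1.

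From the raw intensities, log2 ratios were computed in R 4.3.3 with limma 3.58.1 and data.table (version 1.17.8): normexp background correction (offset 50) and loess within each array. Control spots and outlier flags were left out, spots of a probe were averaged, and a gene took its brightest probe. Probes were named through RefSeq by accession (27235), symbol (3581) or older symbol (565), and 24300 kept no current name. A gene entered a fit if its probe passed the background flag in Cy5 or Cy3 on 3 or more of that fit's arrays. Tests were 2-sided (lmFit, eBayes), and p-values were adjusted over every gene of the fit by Benjamini-Hochberg. Time was fitted in 3 genotypes with genotype as a term, genotype over the stimulated arrays with a time term, and responses over all 16 arrays. For a gene not above background in a group, the bound was taken in Cy5 after Aquantile normalization. The sign of each ratio follows the dyes in the labels; with no dye swap, a dye effect common to all arrays cancels in differences between arrays.

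The fit was tested on simulated data of 14958 genes. At 6 h it recovered 28% of 100 changes of log2 size 0.5 and 71% of 100 of size 1. For the double knockout it recovered 51% and 90%. Few genes were changed in the simulation, while 53.1% of 15044 genes were called at 6 h in the real data. These shares therefore do not give the power of the real tests. Whether real double knockout differences of log2 size 1 would have been called was not tested. Precision is limited by how few arrays there are. The members, the lists and the tests were chosen with earlier results of these data known. Named genes were the largest called changes that went the same way in every genotype, up to 12 rises and 12 falls, and a list of nearly all members by role. Alternatives are under the closing section. Protein sequences were not used here. No other columns of per-sample values were used (0). A marker of the lists is not reported here, and list values were computed without it.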

Additional observations from a re-analysis of the deposited data

Results flagged for a closer look

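In 10 of 151 called changes the change in the double knockout had the opposite sign to that in all 3 genotypes tested, in some by a value near 0. The share of such changes among all genes called is not given, so the count has no background. The difference was not tested gene by gene here, each rests on single arrays, and the fitted differences of the double knockout passed for no initiation factor gene. At 24 h against 0 h, Eif4g2 changed by -0.38 in the double knockout and by 0.23 to 0.45 in the others, and Eif4g3 by 0.17 against -0.61 to -0.28. At 42 h against 0 h, Eif4g3 changed by 0.18 against -0.40 to -0.34. Eif4e2 (-0.0055 against 0.44 to 0.97) and Eif6 (-0.0025 against 0.35 to 0.66) were at their 0 h level in the double knockout, and the Eif4e2 values rest on 1 of 3 probes (0.79 at 42 h in the genotypes tested, against -0.13 and -0.17 with the others). The other 5 belong to the step from 24 to 42 h, where the double knockout stayed level after its low 24 h array and the others fell. Eif2b3 changed by 0.0049 against -1.46 to -0.67, Eif3j by 0.12 against -1.14 to -0.46, Eif4a1 by 0.10 against -0.82 to -0.54, Eif1a by 0.0619 against -0.78 to -0.37 and Eif4e by 0.0503 against -0.78 to -0.58.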

How the results depend on the processing

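Counts of calls under the alternatives are given without the share of all genes called, so they show only how far the calls vary. At 6 h the count of called genes (41) stayed within 1.5 times under every alternative that was run, and 30 of the 41 genes kept their call in all of them. At 24 h 16 of 40 did, at 42 h 9 of 31, from 6 to 24 h 5 of 27 and from 24 to 42 h 0 of 12. The count at 24 h was 18 on slide 2 alone, and the counts without 1 genotype ran from 31 to 42. At 42 h the count was 13 on slide 2, and 18 to 38 without 1 genotype. From 6 to 24 h it was 7 with median centring, 17 on slide 2 and 11 to 29 without 1 genotype. From 24 to 42 h it was 36 with median centring, 7 without background subtraction, 0 with the processed signals, with the log ratio column, with all 4 genotypes and on slide 2, and 0 to 18 without 1 genotype. Median centring turned the sign of Eif2d (0.22), Eif3f (0.23), Eif3h (0.25) and Eif4ebp3 (0.44) at 6 h, of Eif1b (0.66), Eif2c2 (0.11), Eif3f (0.82), Eif4ebp2 (0.44), Eif4ebp3 (0.41) and Eif4g3 (0.51) at 24 h, and of Eif1 (0.0291) and Eif1b (0.0034) at 42 h. The mean of all probes turned Eif2c2 (-0.78) and Eif4g3 (-0.0218) at 6 h, and slide 2 alone turned Eif4g2 (-0.0198) at 24 h. The cause was not tested. Dim probes limit Eif5b, Eif2c3 and Eif4e1b, and 1 array per genotype and time limits every value.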
